A study of Mus musculus with 24 samples.

Results

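The oxidative phosphorylation system was followed across embryonic lung and small intestine of mice that lost centrioles or cilia from the epithelium. Its members were the protein-coding genes whose symbol names a subunit of respiratory complexes I to IV or of the ATP synthase (complex V), which gave 106 of the 55536 genes in the table. Of these, 13 are encoded by the mitochondrial genome and 93 by the nucleus. The nuclear members were 82 structural subunits (38 of complex I, 4 of complex II, 8 of complex III, 17 of complex IV and 15 of the synthase) and 11 related factors whose symbols share the same stems, such as the Ndufaf assembly factors of complex I.

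Total RNA of intact lungs and small intestines at E11.5 of embryonic development was sequenced in bulk in 24 libraries, 4 for each of 3 genotypes in each organ. All embryos carried Cre recombinase expressed from the Shh locus (ShhCre), which acts in the epithelium of both organs. The lox alleles of mesenchyme, vessels and blood stay undeleted. Cenpj mutants were ShhCre Cenpj-/lox and so lack, in the epithelium, a protein required for centriole duplication. Ift88 mutants were ShhCre Ift88-/lox and lose in the epithelium a protein of the transport machinery that builds cilia. Controls were ShhCre Cenpj+/lox, so their epithelium kept a single copy of Cenpj, and the same control libraries served both mutants. Outside the epithelium, mutant cells carried the null allele (-) of the targeted gene beside an intact lox allele, while control cells carried no null allele. Comparisons with controls thus do not separate the epithelial loss from that difference. No label states that replicates were separate embryos, so each p-value measures the spread between these libraries only.

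Oxidative phosphorylation passes electrons from NADH and succinate through complexes I to IV to oxygen, pumps protons out of the mitochondrial matrix, and lets them return through the ATP synthase to make ATP. The mitochondrial genome encodes a few hydrophobic core subunits and the nucleus encodes all the rest, so that complexes I, III, IV and V are assembled from the products of both genomes, while complex II is wholly nuclear encoded. Several nuclear subunits exist as pairs of isoforms, one found in most tissues and the other mainly in heart and skeletal muscle, in testis or in lung.

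The sequences that carry the results come first. The mitochondrial member with the largest differences, mt-Atp8 (ENSMUSG00000064356), lies on the plus strand at chrMT:7766-7969 of GRCm38 and encodes a small membrane subunit of the ATP synthase. Its values are read counts for this annotated gene, and were not tested as levels of a separate transcript. Its 204 bases overlap the start of mt-Atp6, the proton channel subunit, by 43 bases, which are in capitals here. Reads in that stretch could belong to either gene.
mt-Atp8: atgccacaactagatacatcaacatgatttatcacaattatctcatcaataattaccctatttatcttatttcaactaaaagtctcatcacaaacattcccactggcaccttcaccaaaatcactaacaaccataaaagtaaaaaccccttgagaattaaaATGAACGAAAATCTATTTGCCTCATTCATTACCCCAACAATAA

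The nuclear members that passed the test were Atp5g1, 1 of 3 genes for the c subunit that forms the rotating ring of the synthase, and Cox6b2, the testis isoform of a complex IV subunit. Their promoters are shown from RefSeq (GRCm38.p6), from 250 bases before to 50 bases after the annotated start, 5′ to 3′ on the gene's own strand, which is the minus strand for all 4. Beside each stands the promoter of its partner, Atp5g2 or Cox6b1. Capitals mark matches on either strand to the motifs of NRF1 (GCGC, any base, then TGCGC) or of ETS factors such as GABP (CCGGAAG). The windows are chr11:96075582-96075881 for Atp5g1, chr15:102670998-102671297 for Atp5g2, chr7:4753045-4753344 for Cox6b2 and chr7:30626065-30626364 for Cox6b1.
Atp5g1: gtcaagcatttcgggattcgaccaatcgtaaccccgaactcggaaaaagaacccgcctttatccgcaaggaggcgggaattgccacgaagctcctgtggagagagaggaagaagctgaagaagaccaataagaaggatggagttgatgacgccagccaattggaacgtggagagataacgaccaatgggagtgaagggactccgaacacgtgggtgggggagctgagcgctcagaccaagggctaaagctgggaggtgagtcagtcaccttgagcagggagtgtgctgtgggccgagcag
Atp5g2: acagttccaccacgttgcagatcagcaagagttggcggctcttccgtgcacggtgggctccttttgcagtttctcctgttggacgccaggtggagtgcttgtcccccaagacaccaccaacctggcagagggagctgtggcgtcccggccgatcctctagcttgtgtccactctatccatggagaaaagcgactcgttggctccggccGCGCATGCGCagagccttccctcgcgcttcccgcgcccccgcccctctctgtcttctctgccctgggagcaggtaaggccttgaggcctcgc
Cox6b2: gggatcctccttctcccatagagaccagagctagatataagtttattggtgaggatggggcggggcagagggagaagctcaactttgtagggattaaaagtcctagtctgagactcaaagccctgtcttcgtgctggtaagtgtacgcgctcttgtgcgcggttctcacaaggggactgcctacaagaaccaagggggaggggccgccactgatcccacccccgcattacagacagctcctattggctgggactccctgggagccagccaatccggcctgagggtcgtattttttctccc
Cox6b1: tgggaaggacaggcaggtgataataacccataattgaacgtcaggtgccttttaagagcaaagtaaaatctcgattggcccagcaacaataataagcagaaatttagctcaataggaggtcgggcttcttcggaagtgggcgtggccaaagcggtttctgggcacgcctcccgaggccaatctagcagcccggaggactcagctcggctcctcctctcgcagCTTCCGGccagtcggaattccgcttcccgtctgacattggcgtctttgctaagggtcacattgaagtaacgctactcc

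The promoter of Atp5g2 held the NRF1 letters on the plus strand from position -42, and that of Cox6b1 held the ETS letters on the minus strand from position -28, counted from the start. Neither these letters nor those of the YY1 motif (AAGATGGC) were found in the windows of Atp5g1 and Cox6b2. RefSeq promoters were matched to 77 of the 93 nuclear members. Of those 77, 24.7% held the NRF1 letters, against 5.19% of all 27025 genes with a RefSeq promoter. A gene counted if any of its promoters held the letters, and the 27025 were not restricted to protein-coding or expressed genes. The ETS letters were found for 23.4% of the members and 9.93% of those genes, and the YY1 letters for 15.6% and 3.19%. At least 1 of the 3 motifs was present for 42 of the 77 members (54.5%), against 16.4% of those genes. The ETS and YY1 motifs can overlap by sharing 3 letters, which happened in no member's promoter.

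The libraries held 96.1 to 120.9 M reads (M, 1e6) and 21994 to 26529 detected genes. In 10 libraries ribosomal RNA exceeded 2000 of every 1e6 reads: all 8 of the Cenpj mutants, lung control 3 and intestine control 2. Cenpj mutant status and this kind of library therefore cannot be told apart beyond what those 2 controls allow. Y-linked Ddx3y RNA was present in lung control 1 (7740 normalized reads) and intestine control 1 (8063). Beside it, Xist measured 2796 in lung control 1 and 93.7 in intestine control 1. Intestine Cenpj mutant 1 held both Ddx3y (1438) and Xist (98520). The organs fitted their labels, with Nkx2-1 averaging at least 4653 normalized reads in each lung group and at most 3.55 in each intestine group, and Cdx2 the reverse. The targeted genes were lower in the mutant organs without passing the test, with a log2 fold change of -0.39 for Cenpj in Cenpj mutant lung (limma adjusted p = 0.339) and -0.42 for Ift88 in Ift88 mutant lung (limma adjusted p = 0.166). In bulk RNA, fewer cells of a type and less RNA per cell cannot be told apart, which holds for every difference below.

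The 13 mitochondrial encoded members took 2.64% to 4.26% of the reads of each library, and the 93 nuclear encoded members took 0.714% to 1.03%. The mitochondrial share averaged 3.41% ± 0.283 in Cenpj mutant lung, 3.37% ± 0.658 in Ift88 mutant lung and 3.40% ± 0.476 in control lung (SD, n = 4 each). In intestine it averaged 3.32% ± 0.406 in Cenpj mutants, 3.65% ± 0.574 in Ift88 mutants and 3.10% ± 0.465 in controls. The groups overlapped in both organs. The nuclear share was 0.894%, 0.912%, 1.02% and 0.929% in Cenpj mutant lung libraries 1 to 4, and 0.916%, 0.979%, 1.02% and 0.837% in Ift88 mutant lung libraries, against 0.714%, 0.868%, 0.786% and 0.925% in control lung libraries. The highest control lay above the 2 lowest Cenpj mutants and the 2 lowest Ift88 mutants, while lung controls 1 and 3 lay below all 8 mutants. In intestine the nuclear share averaged 0.838% ± 0.0409 in Cenpj mutants, 0.902% ± 0.0865 in Ift88 mutants and 0.862% ± 0.115 in controls, with overlapping groups.

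**Figure D1:**
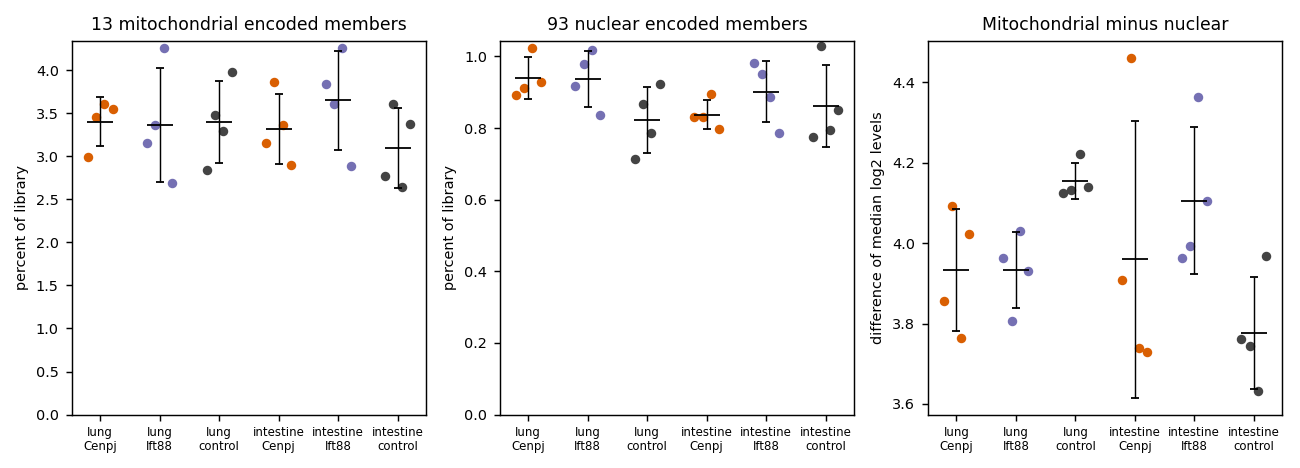
Share of each library's reads taken by the 13 mitochondrial encoded members (left) and by the 93 nuclear encoded members (centre), in percent, and the median log2 level of the mitochondrial members minus that of the nuclear subunits (right). Points are libraries, lines the mean and bars the SD (n = 4); in the right panel the 4 lung controls lie between 4.12 and 4.22, above all lung mutants at 3.76 to 4.09.

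Setting the genomes against each other within a library removes any difference in scaling. The median log2 level of the mitochondrial members exceeded that of the nuclear subunits by 3.85, 4.09, 3.76 and 4.02 in Cenpj mutant lung and by 3.96, 3.81, 4.03 and 3.93 in Ift88 mutant lung, against 4.12, 4.13, 4.22 and 4.14 in control lung. Both mutant lungs lay wholly below the controls, which they share. In intestine the differences ran from 3.73 to 4.46 in Cenpj mutants, from 3.96 to 4.36 in Ift88 mutants and from 3.63 to 3.97 in controls, and there the groups overlapped with the mutants' means above the control mean (3.96 and 4.11 against 3.78). These are descriptions of a summary over the members, and no test was made on them.

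Levels are compared between genes only per kilobase of transcript. The mitochondrial members spanned a wide range, from 662190 normalized reads per kb for mt-Co1, the catalytic subunit of complex IV, 638610 for mt-Nd1 of complex I and 607730 for mt-Cytb of complex III, down to 14496 for mt-Nd4l and 14320 for mt-Nd3, both small membrane subunits of complex I. In between stood mt-Nd2 (303020), mt-Nd5 (254680), mt-Nd6 (227220) and mt-Nd4 (198160), also of the membrane arm of complex I. The other core subunits of complex IV, mt-Co2 (45986) and mt-Co3 (34714), and the synthase subunits mt-Atp6 (28472) and mt-Atp8 (26252) were far below mt-Co1.

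The low mitochondrial values come with a limit of the reference genome. A stretch of chromosome 1 (chr1:24611535-24616197) carries a copy of part of the mitochondrial genome, and 7 of the 13 members have a gene annotated there that matches them at 98% identity or more. The copies of mt-Atp6 (678 bases), mt-Co2 (681), mt-Co3 (783), mt-Nd4l (294) and the aligned part of mt-Nd4 (876) had no mismatch, and those of mt-Nd3 (345 bases) and mt-Co1 (483 of its bases) had 1 mismatch each. The copy of mt-Atp6, named Gm10925, averaged 18769 normalized reads, near the 19389 of mt-Atp6 itself. Counts of mt-Co1, mt-Co2, mt-Atp6, mt-Atp8, mt-Co3, mt-Nd3, mt-Nd4l and mt-Nd4 are therefore uncertain, since mt-Atp8 lies inside the copied stretch though no gene is annotated there. For mt-Nd1, mt-Nd2, mt-Nd5, mt-Nd6 and mt-Cytb no such copy was found among annotated genes. Copies without an annotated gene were not sought.

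Among nuclear subunits the median level was lowest in complex I, at 6674 normalized reads per kb (38 subunits), and highest in the synthase, at 20492 (15). Between them stood complex II at 8365 (4), complex IV at 11256 (17) and complex III at 13186 (8). The most abundant nuclear members were Atp5b (59285) and Atp5a1 (42106), the catalytic and non-catalytic subunits of the synthase head, and Atp5g3 (36116), another c subunit gene. Complex I was led by Ndufa4 (21829), which is grouped here by its symbol although its protein is found with complex IV, and complex IV by Cox6b1 (27844). Succinate dehydrogenase subunits ran from 3127 for the membrane anchor Sdhc to 10111 for the iron-sulfur subunit Sdhb. The 8 Ndufaf factors were lower, with a median of 1194.

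**Figure D2:**
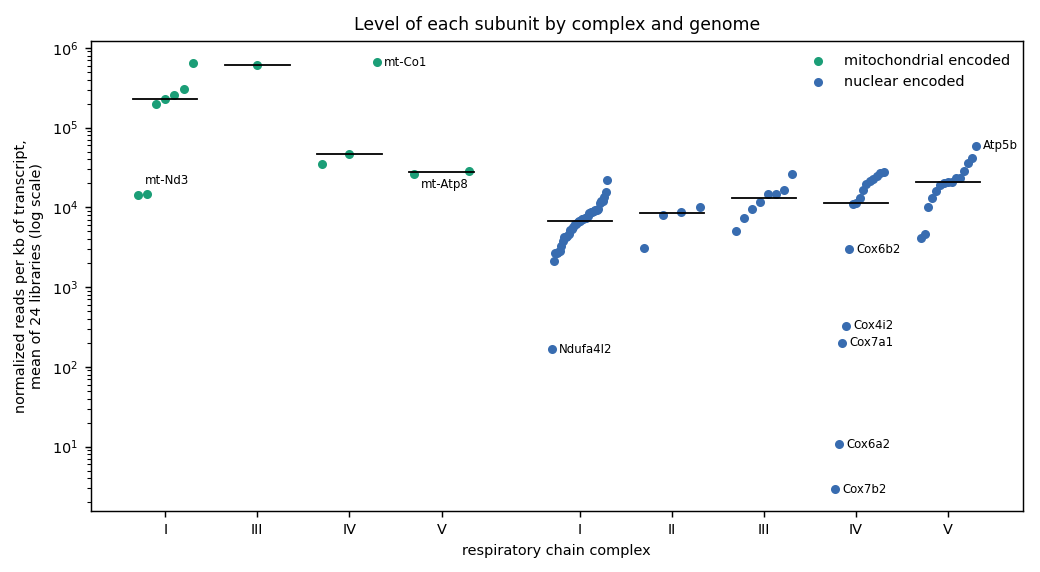
Level of each subunit in normalized reads per kb of transcript, averaged over 24 libraries and on a log scale, by complex and by the genome that encodes it. Each point is a gene and each line a median. Mitochondrial members reach 662190 (mt-Co1) and nuclear members 59285 (Atp5b). The tissue-restricted isoforms of complex IV other than Cox6b2 lie lowest, together with Ndufa4l2 of complex I.

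Within groups, the SD of log2 levels had a median of 0.273 over the mitochondrial members and of 0.218 over the 91 nuclear members that passed the filter. The steadiest members were Atp5a1 (SD 0.0757), Sdha (0.0922), the flavoprotein of complex II, and Ndufs1 (0.0943), the large iron-sulfur subunit of complex I. Among mitochondrial members mt-Atp8 (1.08) and mt-Nd3 (0.61) varied most, and the other 11 had SDs of 0.184 to 0.350.

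**Figure D3:**
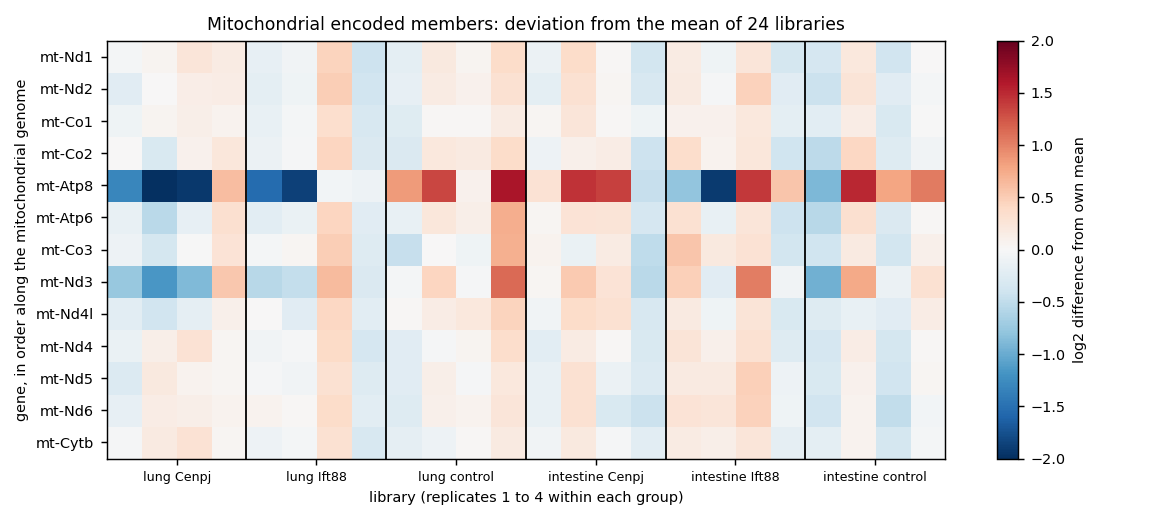
Log2 difference of each mitochondrial encoded member from its own mean over 24 libraries, with genes in their order along the mitochondrial genome (rows) and libraries by group and replicate (columns). Most rows share the pattern of their library, while mt-Atp8 and mt-Nd3 depart from it, with mt-Atp8 lowest in lung Cenpj mutants 2 and 3 (955.6 and 1023 normalized reads).

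Tissue-restricted isoforms were rare at this stage, with the exception of Cox6b2. Cox8b, the muscle isoform, and Cox8c, the testis isoform, had no read in any of the 24 libraries, so that each was below a floor of 3 reads per library (at most 3.45 normalized reads). Cox7b2, a testis isoform, had reads in lung Cenpj mutant 3 (28.4 normalized reads) and intestine Cenpj mutant 3 (9.6) only. Cox6a2, the heart and skeletal muscle isoform of subunit 6a, had reads in 6 libraries, at most 70.4 in lung Ift88 mutant 3. It made up 0.0396% of the per-kb level of Cox6a1 and Cox6a2 together, averaged over 24 libraries. Cox7a1, also a muscle isoform, made up 1.5% of the sum with Cox7a2, and Cox4i2, the isoform known from lung, 1.32% of the sum with Cox4i1. Ndufa4l2, a paralog known to be induced by low oxygen, made up 0.78% of the sum with Ndufa4.

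Cox6b2 made up 9.71% of the sum of Cox6b1 and Cox6b2, with a range of 7.09% to 13.9% over the libraries. The share was 12.6% ± 1.34 in Ift88 mutant intestine and 10.1% ± 2.18 in control intestine, and 7.67% ± 0.433 in Ift88 mutant lung and 7.84% ± 0.762 in control lung (SD, n = 4 each). In Cenpj mutants it was 10.2% ± 3.11 in lung and 9.79% ± 2.57 in intestine. Of the per-kb sum of the 3 genes for the c subunit of the synthase, Atp5g3 made up 42.5%, Atp5g2 33.2% and Atp5g1 24.3%. The order of Atp5g2 and Atp5g1 rests largely on the transcript lengths used (441 bases for Atp5g2). Their mean normalized reads were 12528 and 12369. Markers of heart muscle, where Cox6a2 and Cox7a1 are typical, summed to 7735 to 19065 normalized reads over 16 genes in lung libraries and to 2650 to 3951 in intestine libraries. Of the 16, up to 4 averaged 0 in a group, and Nppa and Nppb averaged at most 7.15 in any group. The part of such cells in the values above was not tested.

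The first comparison sets lung that lost centrioles from the epithelium against control lung. Of the nuclear members, 91 were tested and 84 had a positive log2 fold change in Cenpj mutants over controls, with a median of 0.22, while 47.5% of all 31361 genes tested were positive and their median was 0. Of the 13 mitochondrial members, 5 were positive, with a median of -0.08. No member passed an adjusted p under 0.05 in limma, against 0.513% of all genes. An unadjusted p under 0.05 was reached by 25 nuclear members, all positive, and by 3 mitochondrial members, all negative, against 5.01% of all genes with a positive and 6.49% with a negative value. On reads recovered from the table, edgeR called 0 members and DESeq2 called 5, all nuclear: Atp5g2, Ndufa10, Ndufa8, Ndufb9 and Atp5a1 (2.4% of all genes). With the kind of library as a term over 24 libraries, 64 of 91 were positive and the nuclear median was 0.08, and without lung control 1 it was 0.13.

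The positive sign was not limited to 1 complex. It was found for 34 of 38 complex I subunits (median 0.23), 4 of 4 of complex II (0.21), 8 of 8 of complex III (0.22), 14 of 15 tested of complex IV (0.22) and 15 of 15 of the synthase (0.21). For 18 nuclear members, all 4 Cenpj mutants lay above all 4 controls, against 2.68% of all genes, and for 0 members all mutants lay below, against 2.74%. Without lung control 3 the number above was 19 (3.94% of all genes) and mt-Atp8 lay wholly below (4.72%). Without lung control 1 the number above was 18 (3.49%), and 1 nuclear and 1 mitochondrial member lay wholly below (3.72%). The 18 held 5 synthase subunits (Atp5g2, Atp5o, Atp5g3, Atp5a1 and Atp5b), 6 of complex I, 3 of complex IV, Sdha, and the factors Cox7a2l, Ndufaf3 and Ndufaf5.

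Atp5g2 had the smallest p among the nuclear members. It measured 13415, 14098, 15746 and 14607 normalized reads in Cenpj mutant lung, against 8986, 11735, 10199 and 12503 in control lung. Every mutant library exceeded every control. The log2 fold change was 0.42 (SE 0.11), and limma's adjusted p of 0.0784 did not pass the threshold, with a range of 0.0255 (without lung control 4) to 0.245 (without lung control 1) when single libraries were left out. Ndufa10, an accessory subunit of complex I, measured 15757, 17310.4, 19027 and 16478 normalized reads in Cenpj mutant lung, against 12814, 14713, 13233 and 12192 in control lung. The groups did not overlap, with a log2 fold change of 0.37 (SE 0.09) and a limma adjusted p of 0.0839. Atp5a1 was higher in Cenpj mutants by 0.23 on the log2 scale without overlap.

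The mitochondrial side of the same comparison turned on mt-Atp8. It measured 1591, 955.6, 1023 and 5983 normalized reads in Cenpj mutant lung, against 7058, 9847, 4175 and 12158 in control lung. Mutants 1 to 3 were below every control and mutant 4 was above control 3. The log2 fold change was -2.14 (SE 0.48) with a limma adjusted p of 0.051. Without Cenpj mutant 4 it was -2.73 (limma adjusted p = 0.0043), and without lung control 3 the adjusted p was 0.0288. Next to it mt-Nd3 measured 2707, 2034, 2466 and 6600.0 in Cenpj mutant lung, against 4435, 6153, 4478 and 9958 in control lung, with mutants 1 to 3 below every control and a log2 fold change of -0.94 (SE 0.32, limma adjusted p = 0.218). Its adjusted p was 0.0475 without Cenpj mutant 4.

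Most other mitochondrial members differed little in that lung comparison. mt-Cytb had the highest log2 fold change, at 0.14, and apart from mt-Atp8, mt-Nd3, mt-Atp6 and mt-Nd4l the range was -0.11 to 0.14. The chromosome 1 copies of mt-Nd3 and mt-Atp6 had -0.68 and -0.43, beside -0.94 and -0.36 for the members themselves, and the copy of mt-Nd4 had -0.41 beside 0.04, none past the test. The copies of mt-Nd4l, mt-Co3, mt-Co2 and mt-Co1 had -0.21, -0.05, -0.02 and 0.09, also none past the test. The mitochondrial ribosomal RNAs, which are not members, went the other way, taking 0.191% ± 0.0524 of reads in Cenpj mutant lung and 0.0987% ± 0.0557 in control lung, the highest control value (0.175%) being in ribosomal-rich control 3. Whether the kind of library has a part in the low mt-Atp8 values was not tested. Ribosomal-rich lung control 3 was the lowest of the 4 controls for mt-Atp8, and the intestine Cenpj mutants, also ribosomal-rich, measured 4782, 10637, 10117 and 2854 normalized reads. Of these, 3 lay within the range of the lung controls and mutant 4 lay below it.

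The second comparison sets lung that lost cilia from the epithelium against the same controls. Again the nuclear members were mostly positive, 81 of the 91 tested with a median of 0.19 against 0 over all genes, and the mitochondrial members mostly negative, 2 of 13 positive with a median of -0.12. No member passed in limma, against 1.07% of all genes. Unadjusted p under 0.05 was reached by 19 nuclear and 1 mitochondrial member (12.2% of all genes), and neither edgeR nor DESeq2 called any. Without lung control 1 the nuclear median was 0.10. As both lung comparisons rest on the same 4 controls, their common sign is not independent.

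All 4 Ift88 mutants lay above all 4 controls for 1 nuclear member, Atp5g2, against 3.19% of all genes, and below them for Ndufs1 and for mt-Atp8, against 2.94%. Atp5g2 measured 13639, 13589, 14258 and 12681 normalized reads in Ift88 mutant lung, against the 8986 to 12503 of control lung, a log2 fold change of 0.33 (SE 0.11, limma adjusted p = 0.154). For mt-Atp8 the values were 1347, 1070, 3765 and 3665 in Ift88 mutant lung, against the 4175 to 12158 of control lung. The log2 fold change was -1.87 (SE 0.48), with a limma adjusted p of 0.0681 that passed the threshold in the fit on these 2 groups alone (0.0178) and without lung Cenpj mutant 4 (0.0198), whose spread the fit shares. For Atp5g2 it was 0.0432 without lung control 4. Atp5e, the small epsilon subunit of the synthase stalk, had the smallest p among nuclear members (log2 fold change 0.52, SE 0.16, limma adjusted p = 0.151) with overlapping groups.

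Cell type markers also differed between the lung groups. The 6 smooth muscle markers summed to 20698 to 46700 normalized reads in Cenpj mutant lung and 47435 to 79463 in Ift88 mutant lung, against 9999 to 31636 in control lung, and 0 of the 6 passed the test in Cenpj mutants while 2 rose in Ift88 mutants. The 7 lung epithelium markers summed to 17174 to 36646 in Cenpj mutants and 34893 to 68674 in Ift88 mutants, against 24356 to 55319 in controls. Of these 7 markers, 0 passed in Cenpj mutants against controls, 1 rose in Ift88 mutants against controls, and 4 fell in Cenpj mutants against Ift88 mutants. The 6 macrophage markers summed to 8338 to 11649 in Cenpj mutants and 8475 to 10006 in Ift88 mutants, against 5029 to 9747 in controls, and 1 of the 6 rose in each mutant. The 12 erythroid markers summed to 543570 to 1837700 in Cenpj mutant lung and 254350 to 414660 in Ift88 mutant lung, against 497430 to 1633700 in control lung, and 0 passed in Cenpj mutants while 6 fell in Ift88 mutants. None of these markers was at 0 in any lung group, and their part in the differences of the members was not tested.

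**Figure D4:**
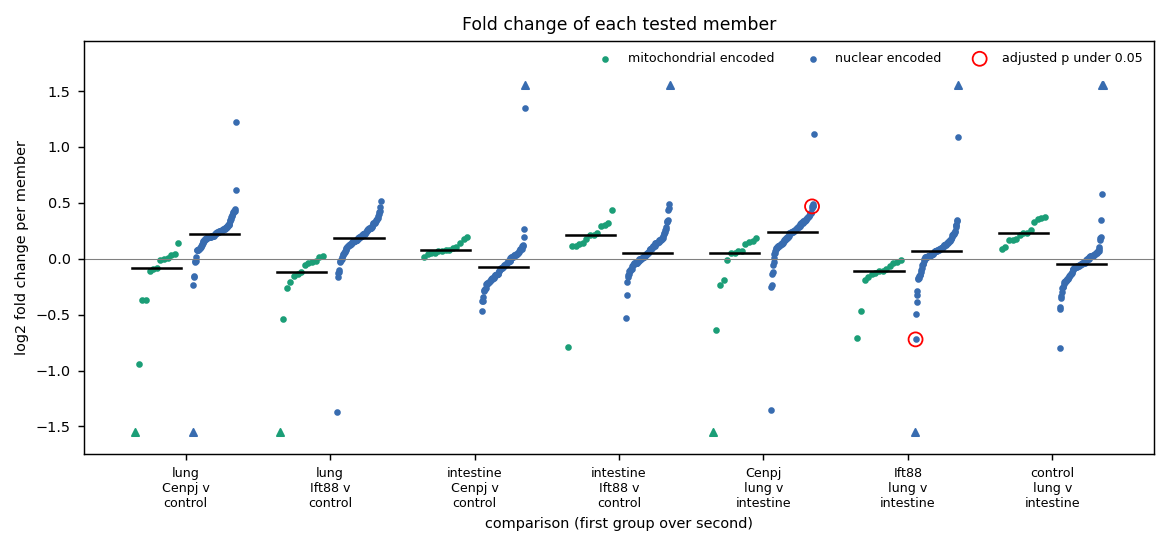
Log2 fold change of each tested member (13 mitochondrial encoded and 90 or 91 nuclear encoded) in 7 comparisons, the first group named over the second, with points sorted within each set, lines at the medians, and triangles for values outside the plotted range. Circles mark the 2 members that passed an adjusted p under 0.05 in limma, Atp5g1 (0.47) and Cox6b2 (-0.72); the nuclear medians are 0.22 and 0.19 in the lung mutants and -0.07 and 0.05 in the intestine mutants.

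In intestine, most nuclear members of Cenpj mutants had negative values. Of the 90 nuclear members tested, 31 were positive, with a median of -0.07 against 0.01 over all genes. The 13 mitochondrial members were all positive, between 0.02 and 0.19, with a median of 0.07. No gene of any kind passed in limma (0% of all genes), and 3 nuclear and 0 mitochondrial members reached an unadjusted p under 0.05, against 5.12% of all genes. Neither edgeR nor DESeq2 called a member, and the groups overlapped for every member tested, while 1.3% and 0.915% of all genes lay wholly higher or lower. Without ribosomal-rich intestine control 2 the nuclear median was 0.06 and there were 6 nuclear members wholly higher (3.21% of all genes), and without control 1 there were 3 wholly lower (1.7%). Ndufb6, an accessory subunit of complex I, measured 2423, 2018, 2565 and 2253 normalized reads in Cenpj mutant intestine, against 2435, 3930, 2750 and 3050.0 in control intestine. Control 2 was the highest, and the log2 fold change was -0.38 (SE 0.17, limma adjusted p = 0.906).

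Intestine that lost cilia had 58 of 90 nuclear members positive, with a median of 0.05 beside 0.06 over all genes, and 12 of 13 mitochondrial members positive, with a median of 0.21. None passed in limma, against 0.719% of all genes. Unadjusted p under 0.05 was reached by 9 nuclear and 1 mitochondrial member (13.4% of all genes), and edgeR and DESeq2 called 0. The mitochondrial member was mt-Nd6, which lies on the minus strand of the mitochondrial genome and measured 140661, 137489, 160037 and 108856 normalized reads in Ift88 mutant intestine, against 88919, 122474, 82452 and 111576 in control intestine. Mutant 4 lay below controls 2 and 4, and the log2 fold change was 0.44 (SE 0.16, limma adjusted p = 0.218). The nuclear median was 0.20 without intestine control 2, and -0.01 without control 1.

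Ndufa4l2 and Ndufs1 were the members whose groups did not overlap in that comparison, against 3.8% of all genes higher and 2.86% lower. Ndufa4l2 measured 416.7, 199.3, 232.4 and 266.2 normalized reads in Ift88 mutant intestine, against 67.3, 0, 65.2 and 123.8 in control intestine. Its log2 fold change was 3.29 (SE 1.06, limma adjusted p = 0.148), and it was 1.70 without control 2, the library at 0. Without control 4 the adjusted p was 0.0446. In the authors' deposited table, Ndufa4l2 had a linear fold change of 4.34 in this comparison with an FDR of 0.0304. In lung the same gene measured 145.2, 32.1, 56.9 and 77 normalized reads in Ift88 mutants, against 122.5, 226, 332.7 and 104.4 in controls, where the log2 fold change was negative (-1.37). The difference between the organs, -4.67 on the log2 scale, had a limma adjusted p of 0.233.

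Ndufs1 was lower in Ift88 mutants of both organs, and it was singled out after its values were seen. It measured 8398, 9057, 9759 and 8595 normalized reads in Ift88 mutant lung, against 9853, 10271, 10243 and 9768 in control lung. In intestine it measured 8938, 9450.2, 8526 and 8462 in Ift88 mutants, against 10892, 10385, 9644 and 9934 in controls. In both organs every mutant library lay below every control. The differences were small, -0.17 (SE 0.09) in lung and -0.21 (SE 0.09) in intestine on the log2 scale, and limma's adjusted p was 0.499 and 0.334. In intestine the smooth muscle markers summed to 99015 to 188340 normalized reads in Ift88 mutants, against 6299 to 87844 in controls, and their part was not tested.

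**Figure D5:**
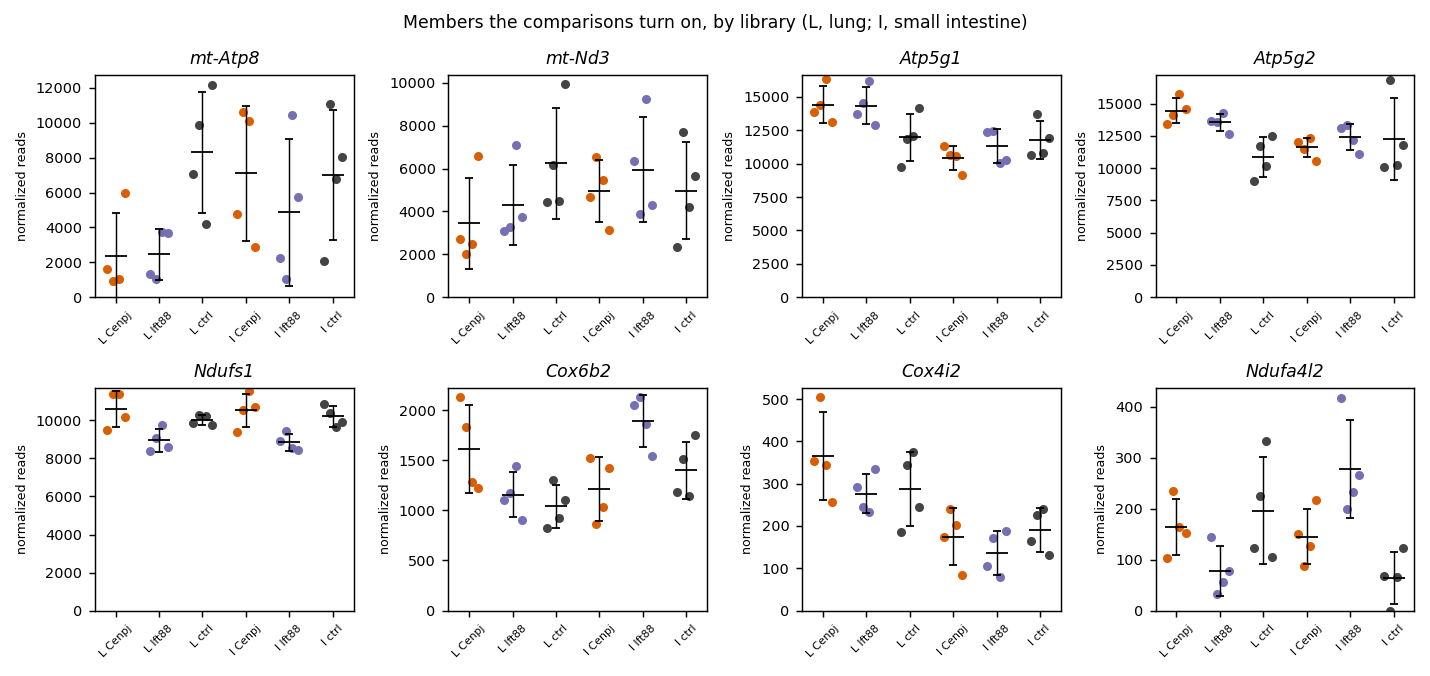
Normalized reads of 8 members in every library, by organ (L, lung; I, small intestine) and genotype, with the mean and SD of each group (n = 4). Atp5g1 is higher in lung than in intestine of Cenpj mutants (13095 to 16315 against 9160 to 11295), Cox6b2 is lower in lung than in intestine of Ift88 mutants (905.7 to 1446 against 1546 to 2132), and mt-Atp8 runs from 955.6 to 12158.

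The mutants can also be set against each other without the controls. In lung, Cenpj mutants against Ift88 mutants gave 55 of 91 positive nuclear members with a median of 0.03, and 7 of 13 mitochondrial members with a median of 0.01. No member passed in limma, against 1.8% of all genes, 3 nuclear and 0 mitochondrial members had an unadjusted p under 0.05 (12.1% of all genes), and edgeR and DESeq2 called 0. Groups did not overlap for Atp5b and Atp5sl, higher in Cenpj mutants (3.45% of all genes), and for Atp5s, lower (4.18%). Ndufs1 had the smallest p, with 9482, 11386, 11396 and 10190.3 normalized reads in Cenpj mutants, against 8398 to 9759 in Ift88 mutants. Cenpj mutant 1 lay below Ift88 mutant 3, and the log2 fold change was 0.24 (SE 0.09, limma adjusted p = 0.254).

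In intestine, 18 of 90 nuclear members were positive in Cenpj over Ift88 mutants, with a median of -0.16 beside -0.03 over all genes, and 4 of 13 mitochondrial members, with a median of -0.13. Complex I subunits were negative in 35 of 38 cases. None passed in limma, against 2.19% of all genes, 11 nuclear and 1 mitochondrial member had an unadjusted p under 0.05 (15.6% of all genes), edgeR called 0 and DESeq2 called Cox6b2 and Ndufs1 (5.87% of all genes). Cox6b2 measured 1528, 863.3, 1035 and 1426 normalized reads in Cenpj mutants, against 2050.2, 2132, 1864 and 1546 in Ift88 mutants. It did not overlap, and neither did Ndufs7, an iron-sulfur subunit of complex I, which was also lower in Cenpj mutants (5.44% of all genes), while 0 members lay wholly higher (4.83%). The log2 fold change of Cox6b2 was -0.67 (SE 0.19) with a limma adjusted p of 0.0752. All 8 Cenpj mutants and none of the 8 Ift88 mutants were ribosomal-rich, so the genotypes and the kind of library cannot be told apart here. The 6 smooth muscle markers summed to 7735 to 35163 normalized reads in Cenpj mutant intestine, against 99015 to 188340 in Ift88 mutant intestine. Of these, 4 fell and none was at 0, and their part was not tested.

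Between the organs of controls, the mitochondrial members were all 13 higher in lung, by 0.09 to 0.38 on the log2 scale with a median of 0.23, and none passed the test. Of 91 nuclear members 29 were positive, with a median of -0.05 that turned to 0.07 without intestine control 2 and to 0.03 without lung control 1. No member passed in limma, against 5.33% of all genes, 5 nuclear and 0 mitochondrial members had an unadjusted p under 0.05 (14.6% of all genes), and edgeR and DESeq2 called 0. No member's groups were free of overlap, against 3.47% of all genes higher in lung and 3.7% lower. The smallest nuclear p was that of Ndufa4l2, with 122.5, 226, 332.7 and 104.4 normalized reads in control lung, against 67.3, 0, 65.2 and 123.8 in control intestine (log2 fold change 2.69, SE 0.91, limma adjusted p = 0.0936). Without intestine control 2, the library at 0, the log2 fold change was 1.10 (limma adjusted p = 0.33), and without intestine control 4 the adjusted p was 0.0255.

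In Cenpj mutants nearly all nuclear members had higher values in lung than in intestine. Of the 91 nuclear members, 84 were positive in lung over intestine, with a median of 0.24 against 0 over all genes, and for 27 of them every lung library exceeded every intestine library (4.99% of all genes), with 29 such members without intestine Cenpj mutant 1 (6.85%). For 0 members every lung library was below (5.82%), and for 1 without intestine Cenpj mutant 1 (7.82%). Unadjusted p under 0.05 was reached by 30 nuclear members and 1 mitochondrial member (17.4% of all genes). The mitochondrial members had 8 positive values and a median of 0.06. The 27 came from all complexes but complex II, among them 10 subunits of complex I, 9 of the synthase, 6 of complex IV and 2 of complex III.

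Atp5g1 (chr11:96068852-96075670, minus strand) was the member that passed, against 6.51% of all genes. It measured 13889.9, 14398, 16315 and 13095 normalized reads in Cenpj mutant lung, against 11295, 10648, 10590.1 and 9160 in Cenpj mutant intestine. Every lung library exceeded every intestine library. Atp5g1 was higher in lung by 0.47 on the log2 scale (SE 0.11, limma adjusted p = 0.0081), a fold change of 1.38. It passed in every alternative tried, with an adjusted p of 0.0049 to 0.0456 when single libraries were left out. In Ift88 mutants it measured 13732, 14516, 16225 and 12912 in lung, against 12354, 12453, 10081 and 10298 in intestine, also without overlap, with a log2 fold change of 0.35 (limma adjusted p = 0.0552). In controls it measured 9784, 11878, 12067 and 14146 in lung, against 10613, 13719, 10765 and 11927 in intestine, with overlap. A processed pseudogene on chromosome 11, Gm10039, matches 411 bases of Atp5g1 with 1 mismatch and averaged 585.3 normalized reads, beside 12369 for Atp5g1.

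In Ift88 mutants 71 of 91 nuclear members were positive in lung over intestine, with a median of 0.07, while all 13 mitochondrial members were negative, with a median of -0.11. Cox6b2 (chr7:4751792-4753094, minus strand) passed, against 8.47% of all genes. It measured 1108, 1172, 1446 and 905.7 normalized reads in Ift88 mutant lung, against 2050.2, 2132, 1864 and 1546 in Ift88 mutant intestine. The highest lung library lay below the lowest intestine library. Cox6b2 was lower in lung by 0.72 on the log2 scale (log2 fold change -0.72, SE 0.21, limma adjusted p = 0.0261). It lost the threshold when any of lung Ift88 mutants 1, 2 and 4 or intestine Ift88 mutants 1, 2 and 3 was left out, with an adjusted p of up to 0.107. In controls Cox6b2 measured 821, 1304, 927.8 and 1106 in lung, against 1186, 1513, 1148 and 1750 in intestine (log2 fold change -0.43, limma adjusted p = 0.343).

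Groups did not overlap for 6 nuclear members between the organs of Ift88 mutants, 3 higher in lung (Atp5g1, Atp5g3 and Cox4i2; 6.01% of all genes) and 3 lower (Cox6b2, Ndufa4l2 and Atp5sl; 8.08%). Cox4i2 measured 291.3, 245.3, 233.5 and 335.9 normalized reads in Ift88 mutant lung, against 105.4, 170.5, 79 and 187.1 in intestine. Cox4i2 measured 353.7, 505.5, 345.1 and 255.9 in Cenpj mutant lung, against 173.1, 240.8, 201.5 and 84.1 in intestine. In both genotypes every lung library was higher, with log2 fold changes of 1.09 (limma adjusted p = 0.0715) and 1.11 (0.0763), neither past the threshold. In controls Cox4i2 overlapped, at 185.2, 345, 374.1 and 244.2 in lung, against 165.2, 226.2, 241 and 130.8 in intestine. Its widely expressed partner Cox4i1 measured 13819 to 22777 in lung and 14924 to 23119 in intestine over all genotypes. Atp5sl, named after the synthase though its human counterpart is an assembly factor of complex I, was lower in Ift88 mutant lung by -0.29 (limma adjusted p = 0.0523).

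Whether a mutation acted differently in the organs was tested as the difference of the differences. For Cenpj, lung minus intestine, no member passed in limma (0% of all genes), while 20 nuclear and 2 mitochondrial members had an unadjusted p under 0.05 (4.76% of all genes), and edgeR and DESeq2 called 0 members. Of 91 nuclear members 85 were positive, with a median of 0.29 beside -0.03 over all genes, and 1 of 13 mitochondrial members, with a median of -0.11. The smallest nuclear p belonged to Ndufb6 (0.71, SE 0.24), followed by Cox6b2 (0.84, SE 0.29) and Atp5g1 (0.45, SE 0.16), each with a limma adjusted p of 0.932. Without intestine control 2 the nuclear median was 0.16. For Ift88 no member passed in limma, against 0.0125% of all genes, 3 nuclear and 0 mitochondrial members had an unadjusted p under 0.05 (7.27% of all genes), edgeR called 0 and DESeq2 called Ndufa4l2 (0.604% of all genes). Of 91 nuclear members 76 were positive, with a median of 0.10 that was -0.01 without intestine control 2 and 0.00 without lung control 1, and all 13 mitochondrial members were negative, with a median of -0.34.

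Genes that build or feed the complexes were counted from lists chosen with earlier results of these data known. In lung, 30 of 38 tested assembly factors outside the member set were positive in Cenpj mutants (median 0.16) and 31 in Ift88 mutants (0.12), as were 71 of 77 mitochondrial ribosomal proteins in each (0.16 and 0.15). Of 21 genes of the citric acid cycle and electron carriers, 18 and 16 were positive (0.13 and 0.08). By contrast, 12 and 13 of 25 genes for expression and upkeep of mitochondrial DNA were positive (-0.01 and 0.00), and 5 and 3 of 15 regulators of mitochondrial biogenesis (-0.11 and -0.15). Of all 31361 genes tested, 47.5% were positive in the Cenpj comparison and 48.9% in the Ift88 comparison. In the 5 lists and these 2 comparisons, 1 gene passed, Oxa1l in Ift88 mutants. The share of all genes that passed was 0.513% for Cenpj and 1.07% for Ift88. Oxa1l encodes the insertase that places mitochondrial translation products into the inner membrane.

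Oxa1l measured 11097, 12294, 10866 and 10224 normalized reads in Ift88 mutant lung, against 8212, 8309, 8305 and 7936 in control lung. In intestine it measured 11980.1, 12869, 13085 and 10676 in Ift88 mutants, against 8577, 9472, 8243 and 8233 in controls. The groups did not overlap in either organ. It rose by 0.44 on the log2 scale in lung (SE 0.09, limma adjusted p = 0.0221) and by 0.49 in intestine (SE 0.09, limma adjusted p = 0.029). In Cenpj mutant lung its values were 10175, 10733, 11214 and 9915, also above every control.

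Between the organs, Pdha1, a subunit of pyruvate dehydrogenase, was higher in lung in each genotype, by 0.38 in Cenpj mutants, 0.26 in Ift88 mutants and 0.37 in controls (limma adjusted p = 0.0039, 0.0499 and 0.0049). In Cenpj mutants the complex III chaperone Bcs1l (0.48), the nuclear receptor Esrrg (1.19), the matrix enzyme Idh2 (0.31) and the mitochondrial ribosomal protein Mrps7 (0.37) also rose in lung over intestine. In Ift88 mutants Mrps18b (0.54) rose and the muscle regulator Perm1 (-1.07) fell. Etfa, a carrier of electrons from fatty acid oxidation, was lower in control lung than in control intestine (-0.35). In intestine the complex IV assembly factor Coa5 was higher in Cenpj than in Ift88 mutants (0.41, limma adjusted p = 0.042). Over all genes, 6.51% passed between the organs of Cenpj mutants, 8.47% between those of Ift88 mutants and 5.33% between those of controls. For intestine Cenpj against Ift88 mutants the share was 2.19%.

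The authors' deposited table, which holds FDR values for 9 comparisons and linear fold changes for 8 of these, listed members at an FDR under 0.05 in 6 of the 9, all nuclear encoded. In lung Cenpj mutants over controls, the authors' deposited table gave 1.30 for Ndufa10, 1.17 for Atp5a1 and 1.33 for Atp5g2. For Ift88 over Cenpj mutants, the reverse of the direction above, the authors' deposited table gave 0.844 for Ndufs1 in lung, and 0.839 for Ndufs1 and 1.56 for Cox6b2 in intestine. For intestine over lung, also reversed, the authors' deposited table gave 0.723 for Atp5g1 and 0.479 for Cox4i2 in Cenpj mutants. In Ift88 mutants the authors' deposited table gave 3.58 for Ndufa4l2, 1.64 for Cox6b2, 1.22 for Atp5sl, 0.787 for Atp5g1 and 0.490 for Cox4i2. In the authors' deposited table no mitochondrial member had an FDR under 0.05 in any of the 9.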

How the data were processed

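RNA from 24 libraries (6 groups of 4) was analysed from 1 table of 55536 genes. Its signal columns hold counts that the authors normalized per library, per the file headers, with reads aligned by STAR 2.5.2b to GRCm38 (mm10) and DESeq2 1.16.1 named in the submitters' processing notes. No source used here names the counting tool or its strand setting, so reads of overlapping or antisense genes may be shared. The authors also deposited linear fold changes (ratio columns) for 8 comparisons and FDR values (p-value columns) for 9, per the file headers, and these are printed only where named.

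The members and all gene lists were chosen with earlier results of these data known. The test planned for raw counts was replaced, since the values are normalized, by limma 3.58.1 (R 4.3.3) with a trend on log2(value + 1). Fold changes on this scale depend, for low genes, on the 1 added: they are usually understated, and can be overstated where a library is at 0, as for Ndufa4l2. Genes averaging at least 1 over the fitted libraries were kept, p-values were adjusted over all of them by Benjamini-Hochberg, and a gene was called at an adjusted p under 0.05. Comparisons within an organ used its 12 libraries, and those between organs and the differences of differences used all 24. All 13 mitochondrial members passed the filter, as did 91 nuclear members in lung and over 24 libraries and 90 in intestine. Cox8b and Cox8c stayed out of every fit and Cox7b2 out of the intestine fit.

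In each library, 100.0% of the values up to 500 were whole multiples of 1 step within a tolerance of 0.051. Larger values, which include those of most members, were not checked in this way. In 4 libraries the step was too near 1 to tell from rounding. The recovered reads, 96.1 to 120.9 M per library, were used with edgeR 4.0.16 (TMM) and DESeq2 1.42.0 as alternatives. The script was tested on simulated data. Levels per kb used the length of 1 transcript per gene, the shortest of its best-annotated ones in GENCODE release M21. Near-identical copies were sought among the annotated transcripts of that release with BLAST+ 2.17.0, and promoters come from RefSeq. All mitochondrial members were named, with nuclear members that were called (up to 10 in each direction), the 2 with the smallest p where fewer were called, tissue-restricted isoforms and their partners, and up to 4 called genes of each other list. Members whose groups do not overlap were named beside their counts, after their values were seen. Alternatives covered the pseudocount, the filter, scaling by library total, a replicate block, edgeR, DESeq2, only the groups compared, the kind of library and each library left out.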

Additional observations from a re-analysis of the deposited data

Results flagged for a closer look

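Within groups of 4 libraries, 222 sets of values were examined, those of 35 members and of the mitochondrial and nuclear shares. Each was searched for a highest or lowest library set apart from the other 3, with a gap above 0.829 of the group's range. It was so in 12 of them, and chance alone sets apart about 1 in 20 groups. Among mitochondrial members, lung Cenpj mutant 4 was highest for mt-Atp8 at 5982.6 normalized reads, against 955.6 to 1591 in the other 3, and for mt-Nd3 at 6600.0, against 2034 to 2707. Lung Ift88 mutant 3 was highest for mt-Nd3 at 7095.2, against 3102 to 3730, and for mt-Atp6 at 25465.6, against 16252 to 17197.

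Among nuclear members, lung Cenpj mutant 1 was lowest for Ndufab1, the acyl carrier subunit of complex I, at 3719 normalized reads (4237 to 4335 in the others), and for Ndufv3 at 5645.4 (6654 to 6783). Intestine control 2, the ribosomal-rich control, was highest for Cox6b1 at 22670.9 (14700 to 15301 in the others) and for Ndufa10 at 15589.9 (11451 to 12100). Intestine Ift88 mutant 3 was lowest for Atp5a1 at 87042.7 (100213 to 101118), and mutant 4 for Cox7a2l, a factor that joins respiratory complexes, at 13217.8 (16066 to 16534). Intestine Cenpj mutant 2 held 41.3 normalized reads of Cox6a2 against 0 in the others, and mutant 4 was highest for Ndufaf6 at 1009.6 (865.5 to 886.8).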

How the results depend on the processing

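Counts of called nuclear members changed under several alternatives, each given with the share of all genes called in the same fit. DESeq2 called 5 in lung Cenpj mutants against controls (2.4%), 2 in intestine Cenpj against Ift88 mutants (5.87%), 2 between the organs of Cenpj mutants (7.98%), 4 between those of Ift88 mutants (9.64%) and 1 for the Ift88 effect between organs (0.604%). Fits on only the groups compared called 5 between the organs of Cenpj mutants (6.53%), 3 between those of Ift88 mutants (11.1%) and 1 in intestine Cenpj against Ift88 mutants (4.82%). Between the organs of Ift88 mutants, 2 were called with no filter (7.08%), 2 with the kind of library as a term over 24 libraries (8.79%) and 2 without the ribosomal-rich libraries (9.44%). The kind of library over 24 libraries gave 1 call between the organs of controls (5.66%). Fitted within the organ, it gave 3 calls in intestine Cenpj mutants against controls (1.8%) and 5 against Ift88 mutants (368 of 31592 genes), and the nuclear medians there were -0.42 and -0.62. The kind of library within the organ and the omission of the ribosomal-rich libraries were chosen after seeing the data. The cause of these changes was not tested.

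For mitochondrial members, fits on only the groups compared called 1 between the organs of Cenpj mutants (6.53% of all genes) and 1 in lung Ift88 mutants against controls (1.26%), mt-Atp8 in each case. With the replicate block, 1 was called in lung Cenpj mutants against controls (0.657%) and 1 in lung Ift88 mutants against controls (1.61%), again mt-Atp8 (limma adjusted p = 0.0067 and 0.0102). In no pair of groups did same-numbered libraries correlate above 0.1 at all 4 numbers, so the numbers were not taken to pair the samples. Yet Ddx3y was high in control 1 of both organs (7740 normalized reads in lung and 8063 in intestine). In Cenpj mutant 1 it was 0 in lung and 1438 in intestine. Whether same-numbered lung and intestine libraries share embryos was not tested, and the main fits treated them as independent. The replicate block moved no other count of called members.

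With single libraries left out, nuclear calls ran from 1 to 2 between the organs of Cenpj mutants (5.16% to 7.04% of all genes), from 0 to 4 between those of Ift88 mutants (6.96% to 8.95%) and from 0 to 1 between those of controls (4.53% to 5.61%). They ran from 0 to 1 in lung Cenpj mutants against controls (0.116% to 1.3%), from 0 to 2 in lung Ift88 mutants against controls (0.166% to 3.19%), and from 0 to 1 both in intestine Ift88 mutants against controls (0.0796% to 3.27%) and in intestine Cenpj against Ift88 mutants (0.226% to 3.87%). Mitochondrial calls ran from 0 to 1 between the organs of Cenpj mutants, from 0 to 2 in lung Cenpj mutants against controls and from 0 to 1 in lung Ift88 mutants against controls.

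Of the named members, 1 reversed: Ndufa4l2 in lung Cenpj against Ift88 mutants was 1.21 on the log2 scale and -0.0112 with the kind of library fitted within the organ. The nuclear median of lung Cenpj against Ift88 mutants was 0.03 and became -0.17 with the kind of library over 24 libraries. Values of named members and medians of the mitochondrial and nuclear members were counted together, and 1548 of them stayed the same. For a named member this means the same direction and side of the threshold. For a median it means a move below the within-group SD of library medians (0.242 mitochondrial, 0.189 nuclear). Most medians were themselves smaller than this limit, so a median could change sign and still count as the same. Between the organs of controls the nuclear median ran from -0.067 to 0.0703 over alternative settings, which was not counted as a move. Named members gained the threshold in 45 cases and lost it in 6, and medians moved in 6. Without lung control 1 the nuclear medians were 0.13 in lung Cenpj mutants and 0.10 in lung Ift88 mutants against controls, beside 0.22 and 0.19 with it. Members near 0 (Cox6a2, Cox7b2) are limited by depth.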
